A study of Mus musculus with 8 samples.

Results

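The genes described here are 36 mouse genes of sugar breakdown and the response to low oxygen. They were chosen by symbol, with earlier results of these data known. They matched 37 of the 16940 rows in the authors' table, because Aldoa stands there under 2 gene identifiers. Of the 37 rows, 26 belong to glycolysis (glucose and lactate transporters, enzymes, regulators and enzymes that set the fate of pyruvate), and 11 are other genes of the hypoxia response. All 37 passed the filter on low values, a mean of at least 10 normalized reads over the libraries, as did 15818 rows in all.

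Nascent RNA was measured by TT-seq (transient transcriptome sequencing, in which RNA made during a short pulse with 4-thiouridine is captured and sequenced) in E14 mouse embryonic stem cells. In all 8 libraries the cells carried CTCF fused to an auxin-inducible degron (AID), a tag through which the auxin IAA triggers destruction of the tagged protein, and the pulse lasted 15 min at 400 µM. The 4 groups held 2 libraries each: an overexpression control without IAA (untreated control), the same control after 12 hours of IAA (treated control), cells overexpressing wild-type CTCF with 12 hours of IAA, and cells overexpressing mutated CTCF with 12 hours of IAA. CTCF binds DNA and holds the bases of chromatin loops. The labels do not say which residues of the mutated CTCF differ, how many clones stand behind a group, or whether replicates were separate cultures, so the p-values measure only the spread between these libraries. All cells grew without serum, with LIF, PD0325901 and CHIR99021, and the labels give no oxygen level. In this bulk measurement, fewer cells transcribing a gene and less RNA made per cell cannot be told apart.

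Glycolysis turns glucose into pyruvate. Glucose enters through the GLUT transporters, is trapped by hexokinase, and is committed by phosphofructokinase. Lactate dehydrogenase then turns pyruvate into lactate, which leaves through monocarboxylate transporters, while pyruvate dehydrogenase kinases (PDKs) keep pyruvate out of the mitochondrial cycle. When oxygen is plentiful, prolyl hydroxylases (the Egln genes) mark HIF-1α, the product of Hif1a, for destruction. When oxygen is scarce, HIF-1α accumulates, pairs with ARNT, and binds DNA at hypoxia response elements with the core ACGTG or GCGTG, switching on much of glycolysis together with genes of mitophagy (Bnip3, Bnip3l), vessel growth (Vegfa) and collagen maturation (P4ha1, P4ha2). Mouse embryonic stem cells are known for a high rate of glycolysis.

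Reads assigned to genes were inferred from the normalized values, with less certainty for the second mutant library. They ran from 15671114 to 21561141 per library and were fewest in the 2 treated controls (15671114 and 17187354). The 37 rows together took 0.279% to 0.341% of the normalized reads of a library, most in the 2 libraries with wild-type CTCF (0.325% and 0.341%). The summed level of 8 embryonic stem cell markers, all listed, was 50300 and 51170 normalized reads in the untreated controls, 53120 and 54440 in the treated controls, 57660 and 61550 with wild-type CTCF and 57430 and 60160 with mutated CTCF. This sum was higher with either form of CTCF than in the controls. Among markers of other lineages, Gata6 and Gata4 of primitive endoderm summed to 155 to 230, and Pax6 of the neural lineage ran from 3.13 to 19.2. None of the 4 fibroblast markers was listed. The 2 listed trophoblast markers, Gata3 and Tfap2c, summed to 804 and 890 with wild-type CTCF and to 547 to 625 in the other libraries; Tfap2c made up nearly all of this (mean 643), and Gata3 had a mean of 3.92 and was listed at 0 in 3 libraries. The mesoderm markers Eomes (mean 57.9) and T (5.72) summed to 89.2 and 93.1 against 42.8 to 69.0. The higher level of the members with wild-type CTCF, given below, moved with Tfap2c and Eomes, and their part in it was not tested. The sum of the stem cell markers was higher with mutated CTCF too, where most called members were lower than in the treated control. Its part was not tested either.

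After 12 hours of IAA the members changed in both directions, and most enzymes of the pathway rose. Between the treated and the untreated control, 23 of the 37 rows passed the threshold (limma, adjusted p under 0.05), 14 higher and 9 lower, against 37.7% of all genes tested (19.4% higher and 18.4% lower). With equal library totals the split was 14 higher and 13 lower, beside 42.1% of all genes called. Of the 16 rows for glycolytic enzymes, 9 rose (Hk1, Tpi1, Gapdh, Gpi1, Pfkp, Hk2, Aldoa, Eno1 and Pgk1, from 0.51 down to 0.22 on the log2 scale) and 2 fell (Pfkm by 0.37 and Pgam1 by 0.24). Without the mean-variance trend in the fit, Tpi1, Gapdh, Aldoa, Eno1, Pgk1 and Pgam1 lost the call. Outside the enzymes, so did Hif1a, Slc16a3, Slc16a1, Slc2a3 and Pdk3. Of the 23 calls, 9 held in every alternative that tested them, among them those of the enzymes Hk1, Hk2, Pfkp and Gpi1. Among the 4 transporters 1 rose and 3 fell. Among the 11 other hypoxia genes, Egln1, P4ha1 and P4ha2 rose and Hif1a, Ndrg1 and Vegfa fell. The median log2 fold change was 0.07 for the glycolysis rows and 0.18 for the other hypoxia rows, beside -0.00165 for all genes; the hypoxia median became -0.12 without the first untreated control, 0.00352 without the first treated control, 0.11 without the second treated control or with a pseudocount of 10, and -0.09 with only genes of a mean of at least 50. The glycolysis median became 0.05 without the first untreated control, 0.12 without the second, 0.11 without the first treated control or with the minimum mean of 50, 0.10 after a correction for GC content and gene length and 0.02 with equal library totals. Leaving out 1 library at a time ended the calls of Ndrg1 (each of the 4 libraries), Slc2a3 and Pdk3 (the first untreated or the second treated control), Pgk1 (the first untreated or the first treated control), Pgam1 and Pfkm (the second untreated or the first treated control), Egln1 (the first untreated control) and Slc16a1 (the second untreated control), with adjusted p-values of 0.052 to 0.26.

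Under IAA, most called members were higher with wild-type CTCF and lower with mutated CTCF than in the control. Against the treated control, 18 rows passed with wild-type CTCF, 17 higher and 1 lower, against 31.6% of all genes tested (21.5% higher and 10% lower). With mutated CTCF, 18 rows also passed, 4 higher and 14 lower, against 34.3% of all genes (22% higher and 12.4% lower). All genes tested had a median log2 fold change of 0.06 with either form. The glycolysis rows had medians of 0.19 with wild-type and -0.10 with mutated CTCF, and the other hypoxia rows 0.23 and -0.39. The second wild-type library weighed on the first of these, since the glycolysis median was 0.11 without it, and the first mutant library on the mutant medians, which were -0.04 and -0.24 without it. After the correction for GC content and length the glycolysis medians were 0.04 with wild-type and -0.18 with mutated CTCF, beside 0.00302 and 0.00644 for all genes, and with median-of-ratios rescaling the mutant one was -0.15. Median-of-ratios rescaling changed the wild-type split from 17 and 1 to 15 higher and 4 lower, beside 32.1% of all genes called, and the mutant split from 4 and 14 to 4 higher and 21 lower, beside 33.9%. This rescaling brought the median of all genes from 0.06 to -0.000433 with wild-type and 0.00203 with mutated CTCF. With only genes of a mean of at least 50, the mutant median of the other hypoxia rows was -0.19.

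Calls that 1 library decided in these 2 comparisons were as follows. With wild-type CTCF, Gapdh lost the call without either treated control or the second wild-type library (adjusted p of 0.09 to 0.77), Pfkfb3 without the first treated control or either wild-type library (0.061 to 0.33), Pfkl and Slc16a3 without the second treated control or the second wild-type library (0.14 to 0.29), Bnip3 without the first treated control (adjusted p = 0.066) and Gpi1 without the second wild-type library (adjusted p = 0.062). A correction for GC content and gene length also ended the wild-type calls of Pfkl (0.19, adjusted p = 0.18), Slc16a3 (0.31, adjusted p = 0.15), Gpi1 (0.08) and Gapdh (-0.0196), and lowered the wild-type changes of Aldoa to 0.26, Eno1 to 0.18, Vegfa to 0.20 and Pgam1 to 0.17, with the call kept. Between the forms it lowered Aldoa to -0.22, Gapdh to -0.15 and Vegfa to -0.15, with the call kept. With mutated CTCF, leaving out the first treated control took the count from 18 to 12, while the share of all genes called went from 34.3% to 25%, ending the calls of Ankrd37, Bnip3l, Egln3, Pfkm, Pfkp, Pgk1 and Slc16a3. Without the first mutant library Bnip3l, Egln3, Pdk3, Pfkp, Pkm and Slc16a3 lost the call, without the second treated control Pdk3, Pfkp and Pkm, and without the second mutant library Ankrd37, with adjusted p-values of 0.051 to 0.47.

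The direct contrast of the 2 forms of CTCF gave the most called members of the 4 comparisons so far. With mutated CTCF 27 of 37 rows differed from wild-type CTCF, 24 lower and 3 higher, against 34.7% of all genes tested (18.4% lower and 16.3% higher). Of the 16 rows for glycolytic enzymes 11 were lower and 1 (Pfkm) was higher, and of the 11 other hypoxia genes 8 were lower and none was higher (limma; at an unadjusted p under 0.05 none was higher either). The median log2 fold change was -0.23 over the glycolysis rows and -0.62 over the other hypoxia rows, beside -0.00868 over all genes; with only genes of a mean of at least 50 the latter of the members' medians was -0.47. A difference of at least 0.58, with the call, was found in 11 rows, all lower; 6.38% of all genes were lower by that rule and 10.2% met it in either direction. Of the 27 calls, 17 held in every alternative that tested them (Ankrd37 was not tested at a minimum mean of 50): Ankrd37, Bnip3, Bnip3l, Egln1, Egln3, Eno1, Gpi1, Ldha, Ldhb, Ndrg1, P4ha1, Pfkfb3, Pfkl, Pgk1, Pkm, Slc16a3 and Slc2a1. Of the rest, Pdk1 and Pdk3 lost the call without the second wild-type or the first mutant library, Pgam1 and Vegfa without the second wild-type library, Tpi1 without the first mutant library, and Aldoc and Pfkm without the second mutant library (adjusted p of 0.059 to 0.3). The second library exceeded the first for 28 of 37 rows with wild-type CTCF, beside 68.2% of all genes (median gap 0.10 on the log2 scale, beside 0.05), and for 31 with mutated CTCF, beside 62.6% (0.09 beside 0.03). Against the shared treated controls 7 of the 37 rows were called with opposite signs for the 2 forms, with the difference called too, as were 2.45% of all genes tested.

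**Figure D1:**
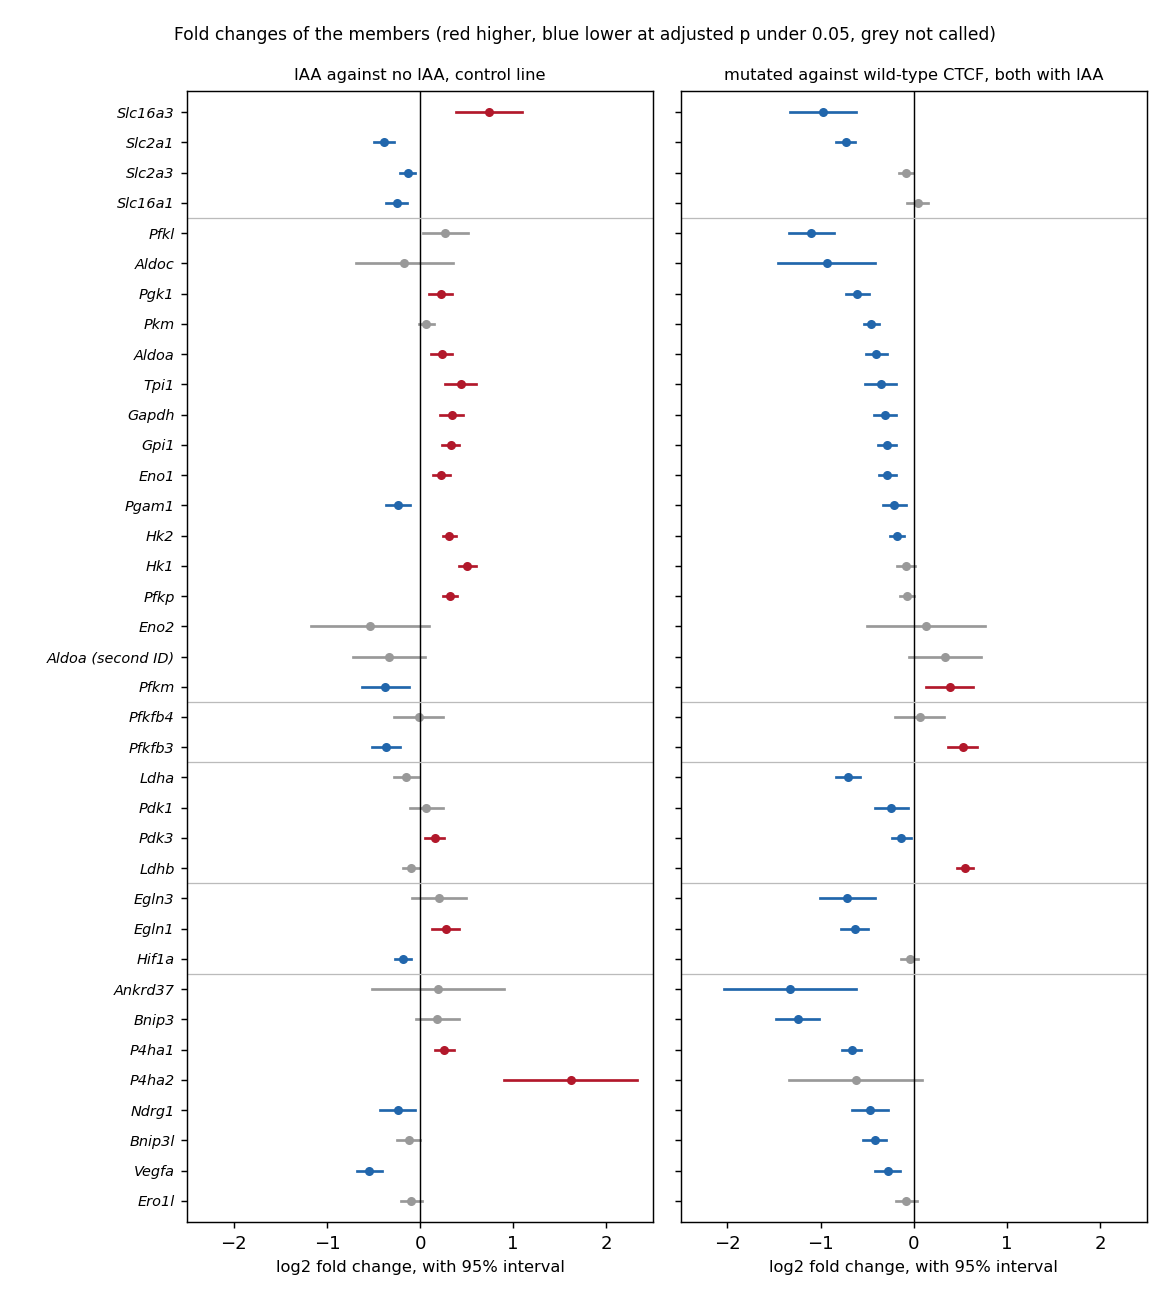
Log2 fold change of each row with its 95% interval, in the treated against the untreated control (left) and in mutated against wild-type CTCF (right); red marks rows called higher, blue rows called lower at an adjusted p under 0.05, and grey rows not called. On the left 14 rows are red and 9 blue, on the right 3 are red and 24 blue.

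Most members raised by IAA were lower with mutated than with wild-type CTCF. The IAA comparison and the contrast of mutated with wild-type CTCF share no library. Their tests are not independent, because 1 estimate of each gene's spread came from all 8 libraries. In that contrast 24 of all 37 rows were lower, whatever IAA did. Of the 14 rows that rose with IAA, 11 (78.6%) were lower in that contrast and none was higher (limma; all 14 log2 fold changes were below 0), whereas of all 3062 genes that rose with IAA 31.7% were lower. Of the 9 rows that fell with IAA, 4 were lower and 2 were higher (44.4% and 22.2%), beside 16.8% and 25.6% of the 2905 genes that fell. The 3 risen rows without a call in that contrast were Hk1, Pfkp and P4ha2, with log2 fold changes of -0.08, -0.07 and -0.62.

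Set against the untreated control, cells with wild-type CTCF stood higher in most members. There 27 rows passed, 21 higher and 6 lower, against 43.2% of all genes tested (27.6% higher and 15.6% lower), and 11 of the 16 enzyme rows were higher, led by Aldoa (0.69), Pfkl (0.65) and Tpi1 (0.59). With mutated CTCF 25 rows passed, 12 higher and 13 lower, against 37.8% of all genes (24% higher and 13.7% lower); here 8 enzyme rows were higher, but of the other hypoxia genes only P4ha2 was higher and 6 were lower. With each library scaled to the same total, that split became 8 higher and 18 lower, and with median-of-ratios rescaling 9 and 16, beside 38% of all genes called under each. The median of all genes was then -0.03 and 6.31e-05, in place of 0.05. Calls against the untreated control that ended without at least 1 of the 4 libraries compared were, with wild-type CTCF, those of Ndrg1, Pfkm, Hif1a, Eno2, Egln1, Egln3, Slc16a1 and the second Aldoa identifier, and with mutated CTCF those of Slc2a3, Aldoc, Tpi1, Gapdh, Hk2, Pdk1, Pgam1, P4ha2, Pfkl, Slc16a1 and Ldha. Both comparisons share libraries with those above, so their counts are not separate evidence.

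**Figure D2:**
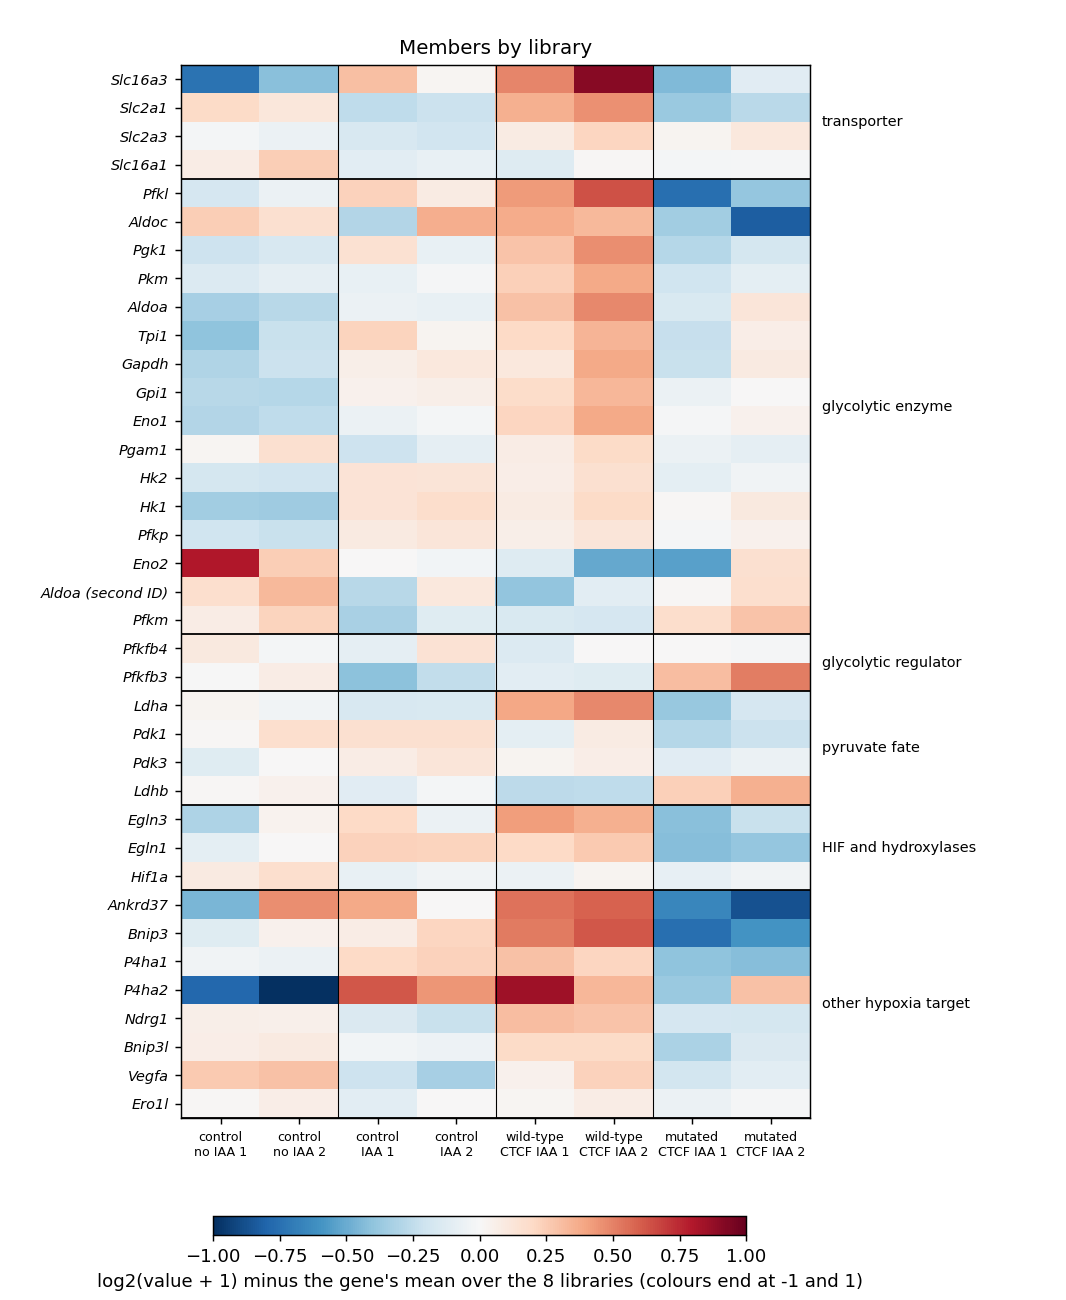
Level of each row in each library, as log2(normalized reads + 1) minus that row's mean over the 8 libraries; red is above and blue below the mean, and colours end at -1 and 1. Both wild-type libraries are red and both mutant libraries blue for Bnip3, Ankrd37, Pfkl and P4ha1, while Ldhb and Pfkfb3 show the opposite order.

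Of the 36 genes, 33 had a promoter window in RefSeq (GRCm38.p6), spanning 250 bases before to 50 bases after the transcript start nearest to the annotated gene start. The hypoxia response core was searched as ACGTG and GCGTG on both strands, with overlapping matches merged into 1 site. Each member counted with 1 window, while the shares given beside the members count every window of a gene. At least 1 site lay in 26 of the 33 windows (78.8%), beside 59.4% of the 15235 windows of genes in the table and 43.8% of all 32851 windows. At least 3 sites lay in 12 windows (36.4%), beside 11.3% and 6.55%. Aldoa, Hk1, Pkm and Vegfa had no site in the window used but held at least 1 in another RefSeq window. The members were chosen for glycolysis and the hypoxia response, and the differences in share were not tested. Among the 22 of the 33 genes that were lower with mutated than with wild-type CTCF, 17 held a site, and so did 9 of the 11 others. All 11 of those lower by at least 0.58 held one. At least 3 sites lay in 8 of the 22 genes and in 4 of the 11 others (Ero1l, P4ha2, Pfkp and Slc16a1). Neither split was tested. For CTCF itself, 4 short cores were searched on both strands, chosen after the fold changes were known. They were the letters AGGGGGC together with AGGTGGC, followed by the same words with A in the third place, that is AGAGGGC together with AGATGGC. At least 1 matched in 13 of 33 windows (39.4%), beside 33.9% of the windows of listed genes. They were 10 of the 22 genes lower with mutated CTCF, 7 of the 11 lower by at least 0.58, and 3 of the 11 others, a split that was not tested. A match is a run of letters and was not tested for binding.

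The upstream 250 bases are shown for 6 of the 11 genes that were lower by at least 0.58, to let the spacing of the sites be read. They cover the mitophagy receptor gene Bnip3 (chr7:138909507-138909756, minus strand), the ankyrin-repeat gene Ankrd37 (chr8:45999851-46000100, minus), the collagen prolyl hydroxylase gene P4ha1 (chr10:59323046-59323295, plus), and the genes of lactate dehydrogenase A, Ldha (chr7:46845554-46845803, plus), the glucose transporter GLUT-1, Slc2a1 (chr4:119108495-119108744, plus), and phosphoglycerate kinase, Pgk1 (chrX:106186850-106187099, plus). Each is written 5′ to 3′ on the strand of its gene, and capitals mark the hypoxia response letters on either strand. For Ankrd37 and Ldha the RefSeq start used lies 5857 and 4329 bases inside the GENCODE gene.
Bnip3: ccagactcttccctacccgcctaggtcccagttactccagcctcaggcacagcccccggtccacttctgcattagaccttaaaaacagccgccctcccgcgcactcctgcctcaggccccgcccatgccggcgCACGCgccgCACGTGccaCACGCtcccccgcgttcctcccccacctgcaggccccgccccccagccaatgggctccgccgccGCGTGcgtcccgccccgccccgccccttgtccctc
Ankrd37: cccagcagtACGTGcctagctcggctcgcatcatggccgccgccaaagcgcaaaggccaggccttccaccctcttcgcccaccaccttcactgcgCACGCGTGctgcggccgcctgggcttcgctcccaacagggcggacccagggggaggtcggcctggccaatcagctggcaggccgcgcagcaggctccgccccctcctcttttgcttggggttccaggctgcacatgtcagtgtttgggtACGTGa
P4ha1: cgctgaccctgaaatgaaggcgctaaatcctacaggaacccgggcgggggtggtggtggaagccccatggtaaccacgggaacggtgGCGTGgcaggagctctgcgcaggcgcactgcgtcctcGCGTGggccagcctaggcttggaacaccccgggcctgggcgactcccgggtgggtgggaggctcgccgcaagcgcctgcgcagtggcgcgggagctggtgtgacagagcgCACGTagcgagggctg
Ldha: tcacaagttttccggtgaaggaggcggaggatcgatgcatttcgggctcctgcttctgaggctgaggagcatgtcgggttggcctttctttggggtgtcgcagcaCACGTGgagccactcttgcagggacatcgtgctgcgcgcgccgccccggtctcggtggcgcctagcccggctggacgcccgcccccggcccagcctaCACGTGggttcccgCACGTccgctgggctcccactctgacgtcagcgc
Slc2a1: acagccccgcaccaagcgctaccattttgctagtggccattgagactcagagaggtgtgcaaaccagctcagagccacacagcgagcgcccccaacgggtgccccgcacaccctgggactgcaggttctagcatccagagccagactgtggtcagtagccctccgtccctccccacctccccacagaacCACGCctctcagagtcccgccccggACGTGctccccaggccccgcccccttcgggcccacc
Pgk1: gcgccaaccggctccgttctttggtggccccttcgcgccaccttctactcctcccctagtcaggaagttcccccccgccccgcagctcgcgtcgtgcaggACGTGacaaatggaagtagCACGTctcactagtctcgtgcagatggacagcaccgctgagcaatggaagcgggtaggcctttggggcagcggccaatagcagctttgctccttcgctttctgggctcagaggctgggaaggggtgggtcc
The upstream stretches hold 4 sites in Bnip3, 3 each in Ankrd37, P4ha1 and Ldha, and 2 each in Slc2a1 and Pgk1. Of the genes lower by at least 0.58 that are not shown, Egln1 and Slc16a3 hold 2 each. Pfkl, Egln3 and Aldoc hold only 1 each there. Ldha has 2 more after its start, 5 in the window. The uppercase run CACGTG occurs in Ldha and in Bnip3, where it is the core read on both strands.

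Of the transporters, the 2 that import glucose and the 2 that move lactate did not behave alike. Slc2a1 encodes GLUT-1, the main glucose importer of many dividing cells (ENSMUSG00000028645.11, chr4:119108711-119137983). It had 1822 and 1722 normalized reads in the untreated controls, 1335 and 1372 in the treated controls, 2044 and 2191 with wild-type CTCF and 1231 and 1322 with mutated CTCF. Both mutant libraries lay below both treated controls, both wild-type libraries lay above all others, and no 2 groups overlapped. Slc2a1 fell with IAA by 0.39 (SE 0.0511, adjusted p = 5.8e-08), rose with wild-type CTCF by 0.64 (adjusted p = 3.7e-13), and was lower with mutated than with wild-type CTCF, at -0.73 (adjusted p = 8.8e-15). With mutated CTCF its difference from the treated control was -0.09 (95% interval -0.189 to 0.018, adjusted p = 0.2). This difference was called lower with median-of-ratios rescaling, with equal library totals and after the correction for GC content and length. Over all alternatives it ran from -0.19 to -0.034. Slc2a3, the gene of the high-affinity importer GLUT-3, rose with both forms, by 0.32 and 0.24, and its difference between them was -0.08 (interval -0.161 to -0.005, adjusted p = 0.09).

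Slc16a3, the gene of the lactate exporter MCT4 (ENSMUSG00000025161.16, chr11:120948480-120960868), was called in each of the first 4 comparisons but was low. Without the mean-variance trend Slc16a3 kept only the call between the forms among these 4. Its values were 51.0 and 63.8 in the untreated controls, 106 and 86.9 in the treated controls, 121 and 162 with wild-type CTCF and 62.7 and 79.1 with mutated CTCF. The mutant libraries overlapped the untreated controls, and the other groups stood apart from one another. Slc16a3 rose with IAA by 0.74 (SE 0.175, adjusted p = 0.00073), rose further with wild-type CTCF by 0.54 (adjusted p = 0.017; 0.31 and not called after the same correction), fell with mutated CTCF by 0.44 (adjusted p = 0.046), and differed by -0.98 between the 2 forms (adjusted p = 2.4e-05). Slc16a1, which encodes the more general lactate carrier MCT1, fell with IAA by 0.25 and was not called with either form; the 2 forms differed by 0.04 (interval -0.068 to 0.149).

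**Figure D3:**
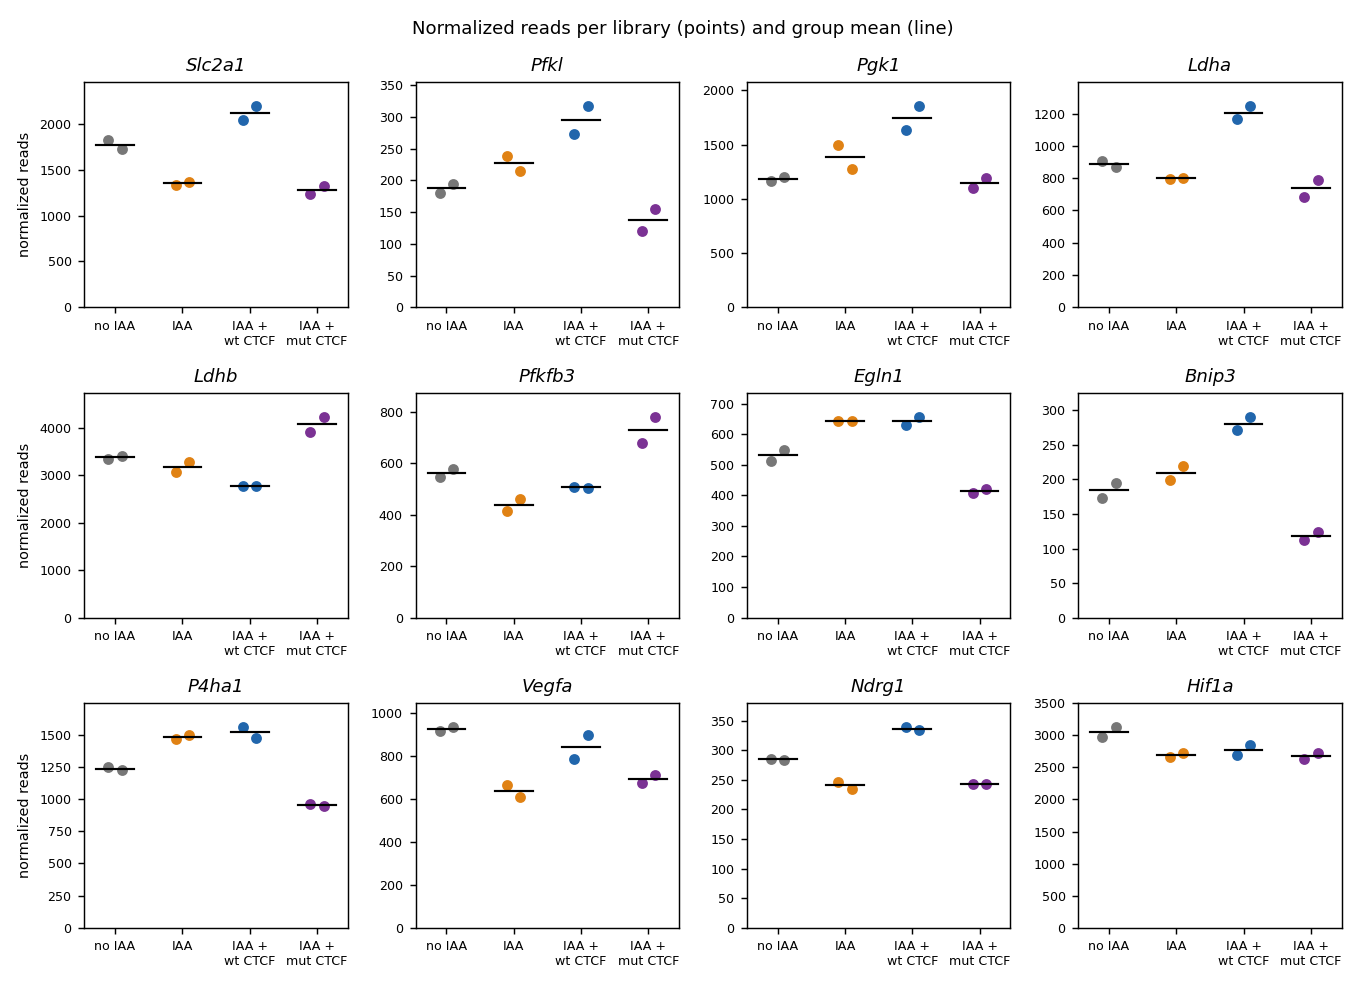
Normalized reads of 12 members in each library (points) with the group mean (line), on axes that start at 0. Slc2a1, Pfkl, Pgk1, Ldha, Bnip3 and Ndrg1 peak with wild-type CTCF, Ldhb and Pfkfb3 peak with mutated CTCF, Egln1 and P4ha1 are lowest with mutated CTCF, and Hif1a stays between 2633 and 3129.

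Among the enzymes, phosphofructokinase showed how members of 1 step differed. Pfkl encodes the liver-type subunit (ENSMUSG00000020277.10, chr10:77986947-78010083). It had 181 and 195 normalized reads in the untreated controls, 238 and 216 in the treated controls, 273 and 317 with wild-type CTCF and 120 and 155 with mutated CTCF. The 4 groups did not overlap, and the mutant group was the lowest. Pfkl rose with wild-type CTCF by 0.37 (SE 0.118, adjusted p = 0.014; 0.19 and not called after the correction for GC content and length), fell with mutated CTCF by 0.73 (adjusted p = 5e-06), and the 2 forms differed by -1.10 (adjusted p = 8.7e-10), to 0.466 of the wild-type level; IAA alone gave 0.27 (interval 0.033 to 0.51, adjusted p = 0.066). The muscle subunit gene Pfkm went the other way, falling by 0.37 with IAA and standing 0.39 higher with mutated than with wild-type CTCF (adjusted p = 0.013). The platelet subunit gene Pfkp, the most transcribed of the 3 per length, rose with IAA by 0.32, fell by 0.09 with mutated CTCF, and differed by -0.07 between the forms (interval -0.147 to 0, adjusted p = 0.12).

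Pgk1, the gene of phosphoglycerate kinase, which makes the first ATP of the pathway (ENSMUSG00000062070.12, chrX:106187100-106203699), gave 1166 and 1203 normalized reads in the untreated controls, 1495 and 1279 in the treated controls, 1634 and 1852 with wild-type CTCF and 1102 and 1187 with mutated CTCF. The mutant libraries overlapped the untreated controls and lay below the treated ones, and both wild-type libraries were the highest. Pgk1 rose with IAA by 0.22 (SE 0.0611, adjusted p = 0.0033), rose with wild-type CTCF by 0.33 (adjusted p = 5.1e-05), fell with mutated CTCF by 0.27 (adjusted p = 0.00047), and differed by -0.60 between the forms (adjusted p = 2.1e-10). Without the mean-variance trend the calls with IAA and with each form against the treated control were lost. The call between the forms was kept.

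Aldolase cleaves fructose bisphosphate into a pair of triose phosphates, which triose-phosphate isomerase interconverts. Aldoa (ENSMUSG00000030695.16, chr7:126795234-126800751) had 1758 and 1824 normalized reads without IAA, 2117 and 2092 with it, 2708 and 3076 with wild-type CTCF and 1988 and 2400 with mutated CTCF. The treated controls fell inside the mutant range, and the wild-type libraries were the highest. Aldoa rose by 0.23 with IAA (adjusted p = 0.0011) and by 0.46 with wild-type CTCF (adjusted p = 4.5e-08), differed by 0.05 with mutated CTCF (interval -0.061 to 0.169, adjusted p = 0.5), and differed by -0.40 between mutated and wild-type CTCF (SE 0.0571, adjusted p = 4.3e-07). The second Aldoa identifier (ENSMUSG00000114515.2, chr7:126800790-126809108), which lies next to the first on the same strand, held 47.2 to 78.4 normalized reads and was not called in any of the first 4 comparisons.

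Tpi1, the isomerase gene, had 435 and 494 normalized reads in the untreated controls, 673 and 586 in the treated controls, 663 and 732 with wild-type CTCF and 491 and 604 with mutated CTCF. The mutant range overlapped both control groups and lay below the wild-type libraries, and the wild-type range overlapped the treated controls. Tpi1 rose with IAA by 0.44 (SE 0.0832, adjusted p = 4.7e-05) and differed by -0.35 between the 2 forms (adjusted p = 0.00087), while against the treated control it gave 0.15 with wild-type (interval -0.02 to 0.317) and -0.21 with mutated CTCF (interval -0.374 to -0.037, adjusted p = 0.052). Most alternatives called the last of these lower, among them median-of-ratios rescaling, equal library totals and the replicate number as a block. Over all alternatives it ran from -0.355 to -0.0563.

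Several other enzymes were called too. Between the 2 forms of CTCF, Pkm (pyruvate kinase) differed by -0.46, Gapdh (glyceraldehyde-phosphate dehydrogenase) by -0.31, Gpi1 (glucose-phosphate isomerase) by -0.29, Eno1 (enolase) by -0.28, Pgam1 (phosphoglycerate mutase) by -0.21 and Hk2 (hexokinase) by -0.18, all called. Hk1, the other hexokinase gene listed here, rose with IAA by 0.51 and differed by -0.08 between the forms (interval -0.178 to 0.013, adjusted p = 0.18). Hk1 held at 2066 to 2348 normalized reads in all 6 libraries with IAA, above the 1608 and 1614 of the untreated controls. Gapdh and Pgam1 have near-identical copies among the rows of the authors' table (4 and 1), so reads could have been split between them. Counting all annotated genes, 14 members have such copies, among them Gapdh (124), Ldha (5), Pgk1 (4), Eno1 (4), Bnip3 (3) and Ldhb (1). How reads shared with a copy were assigned is not given in the sources used here.

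The isozyme genes best known from brain were low. Aldoc (aldolase C) had 38.4 and 36.2 normalized reads without IAA, 26.2 and 41.8 with it, 42.0 and 40.7 with wild-type CTCF and 25.1 and 17.8 with mutated CTCF. The mutant libraries were the lowest, while the treated controls spanned the untreated ones and reached into the wild-type range. Aldoc differed by -0.93 between the 2 forms (SE 0.258, adjusted p = 0.0043). Eno2 (neuronal enolase) had 35.9 and 24.1 without IAA, 20.3 and 19.8 with it, 18.4 and 13.9 with wild-type CTCF and 13.6 and 22.7 with mutated CTCF. The untreated controls were the highest, and the treated controls lay inside the mutant range. Eno2 was called only in wild-type CTCF against the untreated control, at -0.84 (adjusted p = 0.028), and the 2 forms differed by 0.13 (interval -0.506 to 0.768).

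Of the 2 listed genes for the enzymes that make and break fructose-2,6-bisphosphate, the activator of phosphofructokinase, Pfkfb3 went against most members. Pfkfb3 (ENSMUSG00000026773.19, chr2:11471433-11554077) had 547 and 577 normalized reads in the untreated controls, 412 and 462 in the treated controls, 508 and 503 with wild-type CTCF and 679 and 780 with mutated CTCF. The 4 groups did not overlap, and the mutant group was the highest. It fell with IAA by 0.36 (SE 0.0757, adjusted p = 0.00016), rose with mutated CTCF by 0.74 (adjusted p = 3.2e-10), rose with wild-type CTCF by 0.21 (adjusted p = 0.029), and was 0.53 higher with mutated than with wild-type CTCF (adjusted p = 5.6e-07). Pfkfb4 was not called in any of the 6 comparisons; the 2 forms differed by 0.06 (interval -0.201 to 0.325).

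At the fate of pyruvate, the 2 lactate dehydrogenase genes went in opposite directions. Ldha encodes the subunit that favours lactate formation (ENSMUSG00000063229.15, chr7:46841475-46855627) and had 908 and 872 normalized reads in the untreated controls, 798 and 804 in the treated controls, 1165 and 1245 with wild-type CTCF and 685 and 792 with mutated CTCF. The groups did not overlap, and the wild-type libraries were the highest. Ldha rose with wild-type CTCF by 0.59 (SE 0.0635, adjusted p = 1.5e-09) and differed by -0.71 between the forms (adjusted p = 9.2e-12), while IAA gave -0.15 (interval -0.28 to -0.023, adjusted p = 0.057) and mutated CTCF against the treated control -0.12 (interval -0.249 to 0.008, adjusted p = 0.14). Median-of-ratios rescaling and equal library totals called both of these lower. So did the replicate number as a block for IAA, and the correction for GC content and length for mutated CTCF. Over all alternatives the change with mutated CTCF ran from -0.241 to -0.0166.

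Ldhb encodes the heart-type subunit, linked to the use of lactate (ENSMUSG00000030246.12, chr6:142490249-142507957), and is given in full although its values were seen first. It had 3348 and 3409 normalized reads without IAA, 3061 and 3273 with it, 2766 and 2777 with wild-type CTCF and 3912 and 4236 with mutated CTCF. The groups did not overlap, and the order of the 2 forms was the reverse of that for Ldha. Ldhb fell with wild-type CTCF by 0.19 (SE 0.042, adjusted p = 0.0005), rose with mutated CTCF by 0.36 (adjusted p = 5.7e-09) and was 0.55 higher with mutated than with wild-type CTCF (adjusted p = 9.3e-14).

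Pdk1, the pyruvate dehydrogenase kinase gene known as a HIF target, had 361 and 403 normalized reads without IAA, 400.2 and 399 with it, 335 and 379 with wild-type CTCF and 294 and 308 with mutated CTCF. The mutant libraries were the lowest and overlapped no other group, and the untreated range overlapped the treated and the wild-type ranges. Pdk1 fell with mutated CTCF by 0.41 (SE 0.0872, adjusted p = 0.00027) and differed by -0.24 between the forms (adjusted p = 0.028). IAA alone gave 0.07 (interval -0.108 to 0.244, adjusted p = 0.58). Pdk3, the other kinase gene listed, rose with IAA by 0.16, fell with mutated CTCF by 0.18 and differed by -0.13 between the forms.

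Hif1a itself moved little. It had 2967 and 3129 normalized reads in the untreated controls, 2658 and 2723 in the treated controls, 2687 and 2850 with wild-type CTCF and 2633 and 2731 with mutated CTCF. The untreated controls were the highest, and the 3 groups with IAA overlapped one another. Hif1a fell with IAA by 0.18 (SE 0.0428, adjusted p = 0.00082) and differed by -0.05 between the forms (interval -0.132 to 0.041, adjusted p = 0.44). Its IAA call was lost without the mean-variance trend. These are values for nascent RNA, and HIF-1α is known to be set mainly through the stability of the protein, which was not measured here.

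The 2 hydroxylase genes among the members, themselves known HIF targets, were lower with mutated CTCF. The other family member, Egln2, differed by -0.01 between the forms (interval -0.199 to 0.183, adjusted p = 0.96). Egln1 encodes PHD2, the main oxygen sensor (ENSMUSG00000031987.6, chr8:124908587-124949324), and had 512 and 549 normalized reads without IAA, 642 and 641 with it, 629 and 657 with wild-type CTCF and 407 and 420.2 with mutated CTCF. The mutant libraries were the lowest, below even the untreated controls, and the treated controls lay inside the wild-type range. Egln1 rose with IAA by 0.28 (SE 0.0708, adjusted p = 0.0018), fell with mutated CTCF by 0.63 (adjusted p = 2.6e-09) and differed by -0.63 between the forms (adjusted p = 2.3e-09), while wild-type CTCF gave 0.00 (interval -0.141 to 0.145) against the treated control.

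Egln3, which encodes PHD3, had 96.1 and 122 normalized reads without IAA, 137 and 114 with it, 160 and 153 with wild-type CTCF and 88.8 and 102 with mutated CTCF. The wild-type libraries were the highest, the mutant libraries reached into the untreated range, and the 2 control groups overlapped. Egln3 differed by -0.71 between the forms (SE 0.145, adjusted p = 0.00015) and fell with mutated CTCF by 0.39 (adjusted p = 0.032), and IAA gave 0.20 (interval -0.089 to 0.498, adjusted p = 0.28).

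Bnip3, which encodes an outer-membrane receptor that sends mitochondria to autophagy (ENSMUSG00000078566.8, chr7:138890836-138909519), gave the largest called difference between the forms among members with a mean above 50. It had 174 and 195 normalized reads in the untreated controls, 199 and 220.0 in the treated controls, 271 and 291 with wild-type CTCF and 112 and 125 with mutated CTCF. The 4 groups did not overlap, and the mutant group was the lowest. Bnip3 rose with wild-type CTCF by 0.42 (SE 0.114, adjusted p = 0.004), fell with mutated CTCF by 0.82 (adjusted p = 2.9e-07), and differed by -1.24 between the forms (adjusted p = 1.7e-11), to 0.422 of the wild-type level. Its relative Bnip3l rose with wild-type CTCF by 0.23, fell with mutated CTCF by 0.19 and differed by -0.42.

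Ankrd37, an ankyrin-repeat gene known as a HIF target (ENSMUSG00000050914.16, chr8:45996902-46005707), was near the filter, with 10.9 and 21.6 normalized reads without IAA, 20.3 and 15.4 with it, 22.7 and 23.5 with wild-type CTCF and 9.40 and 7.91 with mutated CTCF. The mutant libraries were the lowest of all, the wild-type libraries the highest, and the control groups overlapped. Ankrd37 fell with mutated CTCF by 0.96 (SE 0.351, adjusted p = 0.031) and differed by -1.33 between the forms (adjusted p = 0.0029). With a pseudocount of 10 these were -0.57 and -0.83, still called. One read was worth 0.836 to 1.19 normalized reads, so these values rest on few reads.

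The 2 genes of collagen prolyl 4-hydroxylase subunits both rose with IAA. P4ha1 (ENSMUSG00000019916.14, chr10:59323296-59373304) had 1245 and 1222 normalized reads without IAA, 1464 and 1494 with it, 1560 and 1477 with wild-type CTCF and 963 and 947 with mutated CTCF. The mutant libraries were the lowest, below the untreated controls, and the wild-type and treated control ranges overlapped. P4ha1 rose with IAA by 0.26 (SE 0.0519, adjusted p = 8.8e-05), fell with mutated CTCF by 0.63 (adjusted p = 9.2e-13) and differed by -0.67 between the forms (adjusted p = 1.9e-13).

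P4ha2 was the lowest member per length, with 8.36 and 5.17 normalized reads without IAA, 23.8 and 20.9 with it, 27.98 and 19.3 with wild-type CTCF and 11.5 and 18.8 with mutated CTCF. The untreated controls were the lowest, the treated controls lay inside the wild-type range, and the mutant libraries stood between. P4ha2 rose with IAA by 1.62 (SE 0.354, adjusted p = 0.0003), a 3.07-fold change on the log2(value + 1) scale (0.95 on the log2 scale with a pseudocount of 10, still called), and differed by -0.62 between the forms (interval -1.339 to 0.092, adjusted p = 0.17).

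The remaining hypoxia genes were Vegfa, Ndrg1 and Ero1l. Vegfa, the gene of the angiogenic growth factor VEGF-A, fell with IAA by 0.55 (SE 0.0668, adjusted p = 1.2e-08) from 918 and 935 normalized reads to 663 and 607, and rose with wild-type CTCF by 0.41 to 788 and 898. With mutated CTCF it stood at 673 and 711, and the 2 forms differed by -0.28 (adjusted p = 0.00096). Ndrg1, a stress-response gene, fell with IAA by 0.24, rose with wild-type CTCF by 0.48 and differed by -0.47 between the forms. Ero1l, the gene of an endoplasmic reticulum oxidase, was not called in any of the 6 comparisons, and the 2 forms differed by -0.08 (interval -0.193 to 0.03).

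Levels can be set side by side between genes only per length, and the ratios between related genes showed how the balance moved. Per kilobase of exon, Ldhb (2130 normalized reads), Gapdh (1150), Pkm (1060) and Hk2 (904) had the highest mean over the 8 libraries, and P4ha2 (2.72) the lowest. Per kilobase of gene body the order changed to Gapdh (1000), Aldoa (407), Eno1 (236) and Pkm (231), with Ldhb at 189, and P4ha2 (0.538) was again the lowest. The ratio of Ldhb to Ldha per exon kilobase was 7.78 and 8.24 in the untreated controls, 8.09 and 8.58 in the treated controls, 5.01 and 4.70 with wild-type CTCF and 12.0 and 11.3 with mutated CTCF. Both mutant libraries were above and both wild-type libraries below all control libraries. The ratio of Slc2a3 to Slc2a1 ran from 1.38 and 1.42 with wild-type to 2.22 and 2.17 with mutated CTCF, that of Pfkp to Pfkl from 9.09 and 8.16 to 19.6 and 15.8, and that of Bnip3l to Bnip3 from 2.26 and 2.10 to 3.86 and 3.90. For Hk2 over Hk1 the range over all 8 libraries was narrower, 3.42 to 4.22, with the untreated controls highest (4.22 and 4.19). Ratios were not tested. TT-seq also captures intron RNA, and whether it was counted is not given in the sources used here, so the size of a ratio and the order of genes depend on the length chosen, while the order of a ratio over the libraries does not.

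**Figure D4:**
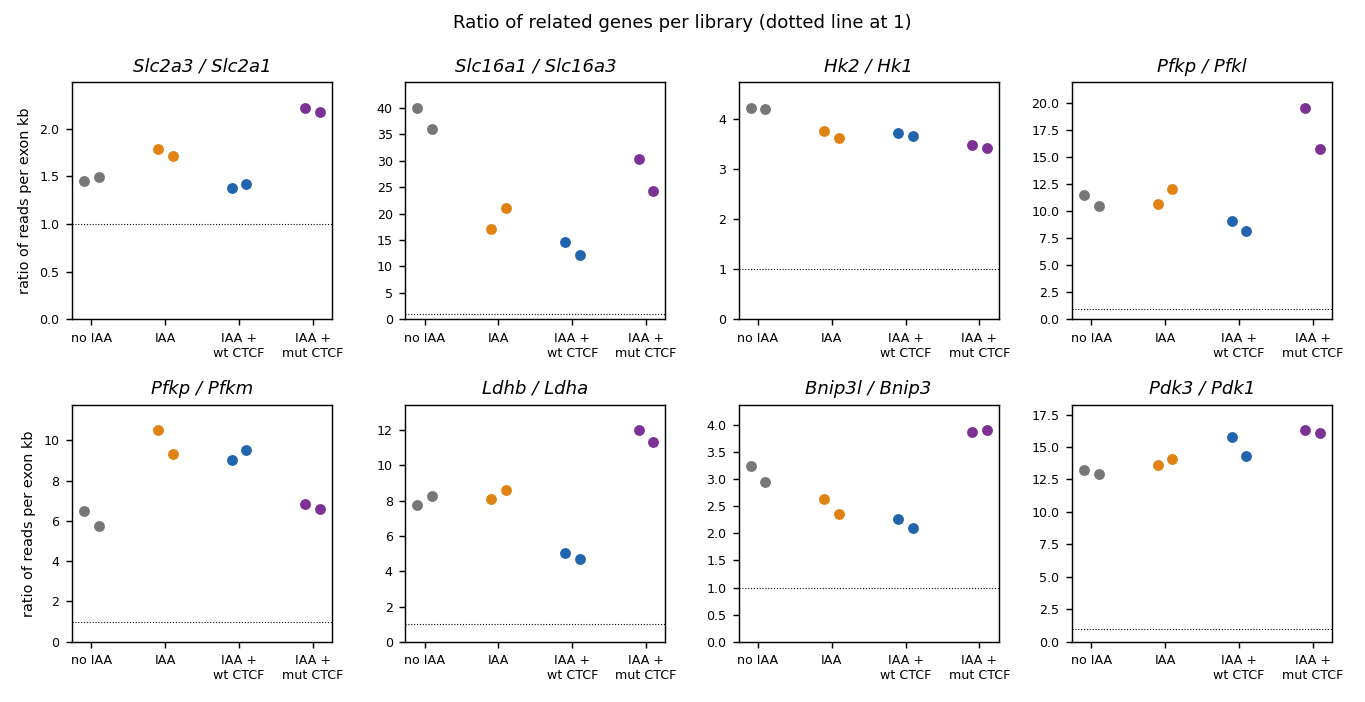
Ratio of normalized reads per exon kilobase between related genes in each library (points), with a dotted line at 1 and axes from 0. The Ldhb to Ldha ratio is lowest with wild-type CTCF (5.01 and 4.70) and highest with mutated CTCF (12.0 and 11.3).

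Other genes of the same pathways, 60 on a list of further glycolytic, pentose phosphate, pyruvate and hypoxia genes, also changed in both directions. Of these 53 were in the table and 52 were tested. With IAA 21 passed (40.4%, beside 37.7% of all genes), 12 higher and 9 lower, with the ends of the range at Gys1 (glycogen synthase, 0.82, adjusted p = 2e-11) and at Epas1 (HIF-2α, -0.56, adjusted p = 1.1e-07). Arnt2, a partner of HIF-α proteins, rose by 0.51 and Pfkfb1 by 0.40, while Slc2a8 fell by 0.51 and Pdp1, the phosphatase that opposes the PDKs, by 0.47. With wild-type CTCF 21 passed (40.4%, beside 31.6%), 16 higher and 5 lower; Hif1an, the asparaginyl hydroxylase gene that restrains HIF, rose by 0.59, Epas1 by 0.54 and Fam162a by 0.48, and Arnt2 fell by 0.52, Pdk4 by 0.50 and Bpgm by 0.33. With mutated CTCF 15 passed (28.8%, below the 34.3% of all genes), 8 higher and 7 lower; Slc2a8 rose by 0.57, Pdha1 by 0.36 and Pdk4 by 0.34, while Arnt2 fell by 0.51 and Kdm3a, a histone demethylase gene, by 0.44.

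Between the 2 forms, 26 of these 52 genes passed (50%, beside 34.7% of all genes), 7 higher and 19 lower with mutated CTCF. Car12 (carbonic anhydrase 12), at 34.1 and 38.5 normalized reads with wild-type and 16.7 and 16.8 with mutated CTCF, gave -1.07 (adjusted p = 0.018). Pgm1 (phosphoglucomutase) gave -0.61, from 737 and 745 to 450.3 and 520.0. Their wild-type libraries lay above their mutant libraries. In the other direction, Pdk4, another PDK gene, gave 0.83 (adjusted p = 9.3e-08), from 126 and 135 with wild-type to 231 and 235 with mutated CTCF, Bpgm 0.33 and Pfkfb1 0.27. The median of the 52 genes was -0.06, beside -0.23 and -0.62 for the members' glycolysis and other hypoxia rows. Against the untreated control 28 passed with wild-type CTCF (53.8%, beside 43.2%), 24 higher and 4 lower, and 19 with mutated CTCF (36.5%, beside 37.8%), 11 higher and 8 lower. Whether the lists differ was not tested.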

How the data were processed

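Per the submitters' processing notes, the authors used Trim Galore, STAR, featureCounts, DESeq2 and build mm10; versions and settings are not given in the sources used here. The authors deposited normalized read counts per gene for the 8 libraries, named here as a signal per gene. Every value was a whole multiple (tolerance 0.01) of 1 step per library, as a read count divided by a library factor would be; for the second mutant library the step (0.989) is close to 1, so this is less certain. Values were tested as log2(value + 1) with limma 3.58.1 (R 4.3.3, 4 residual degrees of freedom, mean-variance trend), fitted to all 8 libraries and to 15818 genes with a mean of at least 10. The p-values of each of the 6 comparisons were adjusted over those genes by Benjamini-Hochberg, and calls were made at 0.05. Positions are from GENCODE M21 (GRCm38), where 16917 of 16940 identifiers matched. No count of molecules was possible without molecular identifiers, and no columns of other samples were present.

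The members and lists were chosen with earlier results of these data known. Members were given in full where a comparison was called with a log2 fold change of at least 0.58 and no overlap between groups, together with Hif1a, Egln1, Slc2a1, Pgk1, Ldha and Pdk1; of the 60 other pathway genes, up to 3 at each end of the first 4 comparisons were named, except 1 gene that is not reported here. Ldhb, and the plotted Vegfa and Ndrg1, were added after their values were seen. The transcripts of Ctcf and Sox2 were not analysed here. Alternatives were other pseudocounts, filters, scalings, fits and left-out libraries, and a correction for GC content and gene length added after the data were seen.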

Additional observations from a re-analysis of the deposited data

Results flagged for a closer look

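For 7 members the 2 forms of CTCF, each compared with the treated control, were called with opposite signs, and the difference itself was called by limma in each; 2.45% of all 15818 genes tested met the same rule. On the log2 scale, mutated minus wild-type CTCF was -1.10 for Pfkl, -0.60 for Pgk1, -0.46 for Pkm, -0.98 for Slc16a3, -1.24 for Bnip3 and -0.42 for Bnip3l, whose transcription rose with wild-type and fell with mutated CTCF, and 0.55 for Ldhb, where the order was the reverse. The smallest of the single effects was that of mutated CTCF on Pkm, -0.10 (adjusted p = 0.042). With single libraries left out, 1 of the 2 calls was lost for Pfkl and Bnip3 (wild-type), Pgk1, Pkm and Bnip3l (mutated), and each of the calls for Slc16a3, and Pfkl and Slc16a3 also lost the wild-type call after the correction for GC content and length. Without a mean-variance trend, at least 1 of the 2 calls was lost for each member but Bnip3. The differences between the forms were called in every alternative. Both effects use the same 2 treated controls, and the difference between the forms does not.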

How the results depend on the processing

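Without the mean-variance trend, the calls among the members fell to 12 with IAA (7 higher, 5 lower; 24.9% of all genes called), 9 with wild-type CTCF (9 higher; 15%), 8 with mutated CTCF (3 and 5; 20.4%), 18 between the forms (20.6%), and 21 and 14 (20 and 1, 6 and 8; 30.8% and 24.5%) for wild-type and mutated CTCF against the untreated control. The share of the 37 rows called with mutated CTCF was then near that of all genes, and the cause of the lower counts was not tested. With 1 library left out, counts ran from 18 to 21 with IAA, 13 to 18 with wild-type and 12 to 21 with mutated CTCF, 23 to 29 between the forms, and 21 to 25 and 17 to 22 for wild-type and mutated CTCF against the untreated control, beside 27.1% to 30.2%, 20.7% to 29.2%, 25% to 28%, 25.1% to 30.8%, 31.6% to 39.1% and 26.8% to 31.6% of all genes. With the replicate number as a block, the counts in the same order were 25, 18, 21, 27, 28 and 26, beside 40.6%, 35%, 37.4%, 37.8%, 45.8% and 40.4% of all genes; deviations of same-numbered libraries correlated at 0.0037 on average (-0.022 to 0.028), so the numbers were not taken to pair libraries. With fold changes corrected for gene length and GC content, the change of Gapdh with wild-type CTCF reversed to -0.0196 (adjusted p = 0.76), the counts were 25, 16, 25 and 30 in the first 4 comparisons, beside 41.5%, 30.8%, 33.3% and 37.7% of all genes, and the glycolysis median with wild-type CTCF was 0.0423. With genes of a mean of at least 50, 198 of the 222 member values were tested, and the low Ankrd37, Aldoc, Eno2 and P4ha2 were not. An edgeR fit on recovered reads was planned and not run, because the step of the second mutant library (0.989) is so close to 1 that a rule guarding against rounded values did not accept its reads as recovered. Low members limit the precision: where a gene has few reads, a difference may be undetectable at this depth.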
